A study of Sus scrofa with 12 samples.

Results

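The genes of the nuclear pore and of the carriers that pass through it were compared between the livers of piglets with strong and with weak signs of swine inflammation and necrosis syndrome (SINS). Genes were taken by symbol from the platform annotation of the array: nucleoporins, importins, exportins and transportins, the small GTPase RAN with the proteins that bind it, and the mRNA export factors of the NXF1 and THO families. This gave 44 genes, measured by 49 transcripts, of the 12307 genes that carry a single symbol. Where a gene had several transcripts, the one with the highest mean over all piglets stood for it. The SINS high group held 6 suckling piglets with high-grade signs and the SINS low group 6 piglets with no or only low-grade signs, all scored for signs of SINS on the third day of life. They were the extremes of a larger set of scored piglets, from 1 herd of hybrid sows inseminated with Pietrain semen, and the labels give the sex of both groups only as mixed. The labels name no treatment, so the groups differ by clinical score and by whatever varies with it. Litter is not given for the arrays. The sample titles also carry a number whose ranges do not overlap between the groups, and its meaning is not given. Anything that goes with that number cannot be told apart from the clinical score.

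The nuclear pore complex is a ring-shaped channel through the nuclear envelope. Its outer and inner rings form the scaffold, a membrane ring anchors it, nucleoporins rich in phenylalanine-glycine repeats fill the channel, and filaments on the cytoplasmic side and a basket on the nuclear side bind cargo. Importins carry proteins into the nucleus and exportins carry proteins and RNA out, and the direction is set by RAN, which is loaded with GTP inside the nucleus and loses it to hydrolysis outside. Bulk mRNA leaves by another route, through NXF1 and its NXT partners, which are recruited with the help of the THO complex. In the liver, as in other tissues, growing and dividing cells are known for a large demand on these routes. Some genes of this machinery were not analysed here, among them XPO1, CSE1L, RANGAP1, RCC1, NUP93, NUP205 and KPNA2.

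Each piglet gave 1 array, and each value is a log2 level from RMA, by which the authors removed background, set the arrays on 1 scale and condensed the probes of a transcript into 1 value. Levels of different genes are not compared, since every transcript has its own probes. The arrays had medians of 4.36 to 4.42 on the log2 scale. The 5 measured hepatocyte markers, among them albumin, each ranked at 99.8% or above among all transcripts by mean level. SINS high replicate 6 stood apart from its group in these genes, and values without it are given for the genes with a clear change and together in the account of the piglets. A gene is called down- or up-regulated here at the filter of the study, a fold change (FC) above 1.3 either way and an unadjusted p below 0.05, with the p of limma. No gene passed after Benjamini-Hochberg adjustment: 0 of 25388 transcripts had an adjusted p below 0.05 with limma and 0 with the methods' t-test, against 2884 with an unadjusted p below 0.05 in limma. A positive log2(FC) stands for a higher level in the SINS high group, and a percentage of the SINS low level is the same difference of log2 means on the linear scale. Exact p-values are two-sided and come from the permutation of all 924 assignments of the 12 piglets, with 0.00216 as the smallest value possible.

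Several genes of the pore and of nuclear transport were down-regulated in the livers of the SINS high group, and none was up-regulated. Of the 44 genes, 10 were down-regulated (22.7%), whereas 3.80% of all genes were. Of the same 44 genes, 0 were up-regulated with limma and 0 with the methods' t-test, against 2.30% of all genes. At a p below 0.05 irrespective of the fold change, 19 of the 44 were lower (43.2%, against 7.98% of all genes) and 0 were higher (against 5.16% of all genes). A negative log2(FC) was found for 37 of the 44 genes, where 49.3% of all genes had one. The median log2(FC) was −0.24 over the 44 genes and 0.00 over all genes. Adjusted p-values of the 10 down-regulated genes lay between 0.280 and 0.384 in limma. The genes vary together across the same piglets, so these counts do not come from independent measurements. Less RNA of a gene per cell and fewer cells that carry it cannot be told apart in whole liver tissue.

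**Figure D1:**
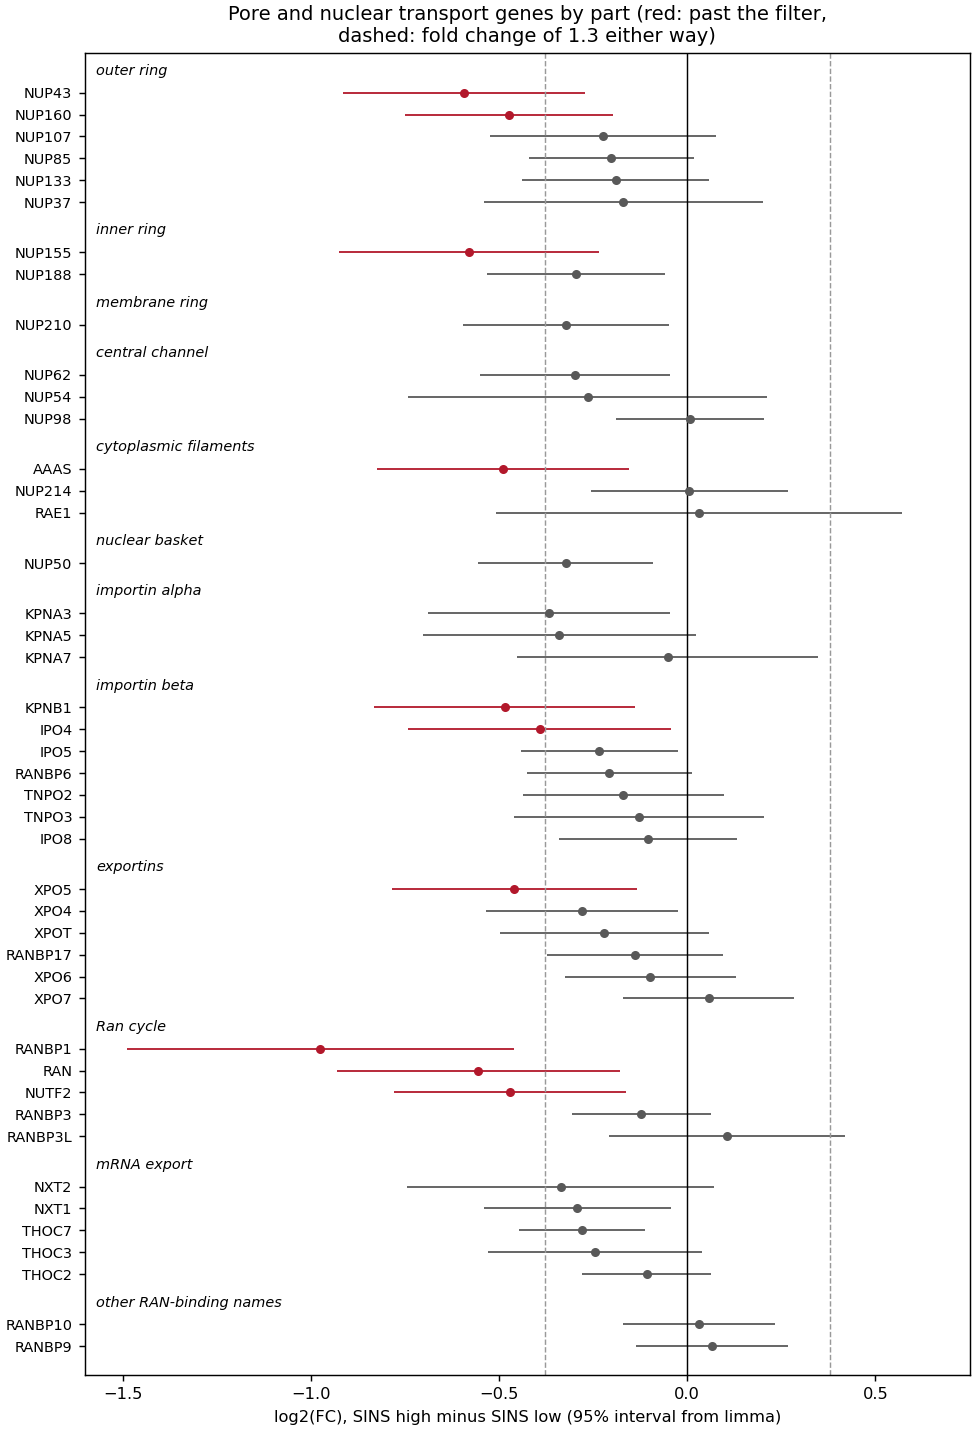
Log2(FC) of SINS high minus SINS low for the 44 genes, with the 95% interval from limma, by part of the pore or class of carrier. Red points are the 10 genes past the filter, dashed lines mark a fold change of 1.3 either way, and 37 of the 44 points lie left of 0.

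The proteins that run the RAN cycle held the largest difference. Of 5 genes of this class, 3 were down-regulated, 0 were up-regulated and 2 were not called, and the median log2(FC) was −0.47. RANBP1, which binds RAN loaded with GTP in the cytoplasm and helps to trigger hydrolysis, had a lowest, median and highest log2 level of 6.38, 6.87 and 7.94 in the SINS high group, against 7.33, 7.88 and 8.49 in the SINS low group. In 5 of the 6 SINS high piglets it lay below every SINS low piglet, while SINS high replicate 6 lay inside the SINS low range. The level in the SINS high group was 50.9% of that in the SINS low group, or −0.98 as log2(FC) (standard error 0.24, exact p = 0.0108), and −1.18 without SINS high replicate 6. RAN itself, the GTPase, lay at 8.30, 8.76 and 9.36 in the SINS high group, against 9.09, 9.37 and 9.73 in the SINS low group. The groups overlapped, with 4 SINS high piglets below every SINS low piglet and replicates 4 and 6 of the SINS high group among the SINS low values. Its log2(FC) was −0.56 (standard error 0.18, exact p = 0.026), or 68.1% of the SINS low level. NUTF2, the factor that carries RAN loaded with GDP back into the nucleus, had 7.69, 8.09 and 8.36 in the SINS high group, against 8.04, 8.54 and 8.84 in the SINS low group. All but 1 of the SINS low piglets lay above every SINS high piglet, the exception being SINS low replicate 5 at 8.04. The difference was, as log2(FC), −0.47 (standard error 0.14, exact p = 0.0173). These 3 genes kept their call in each of the 12 fits that left out 1 array, between −1.18 and −0.86 for RANBP1, between −0.67 and −0.45 for RAN and between −0.57 and −0.40 for NUTF2. RANBP3, a cofactor of nuclear export, had 6.46, 6.50 and 6.62 in the SINS high group, against 6.48, 6.62 and 6.91 in the SINS low group, with a log2(FC) of −0.12 (95% interval −0.31 to 0.06, exact p = 0.0823). Its relative RANBP3L had 0.10 (95% interval −0.21 to 0.42).

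**Figure D2:**
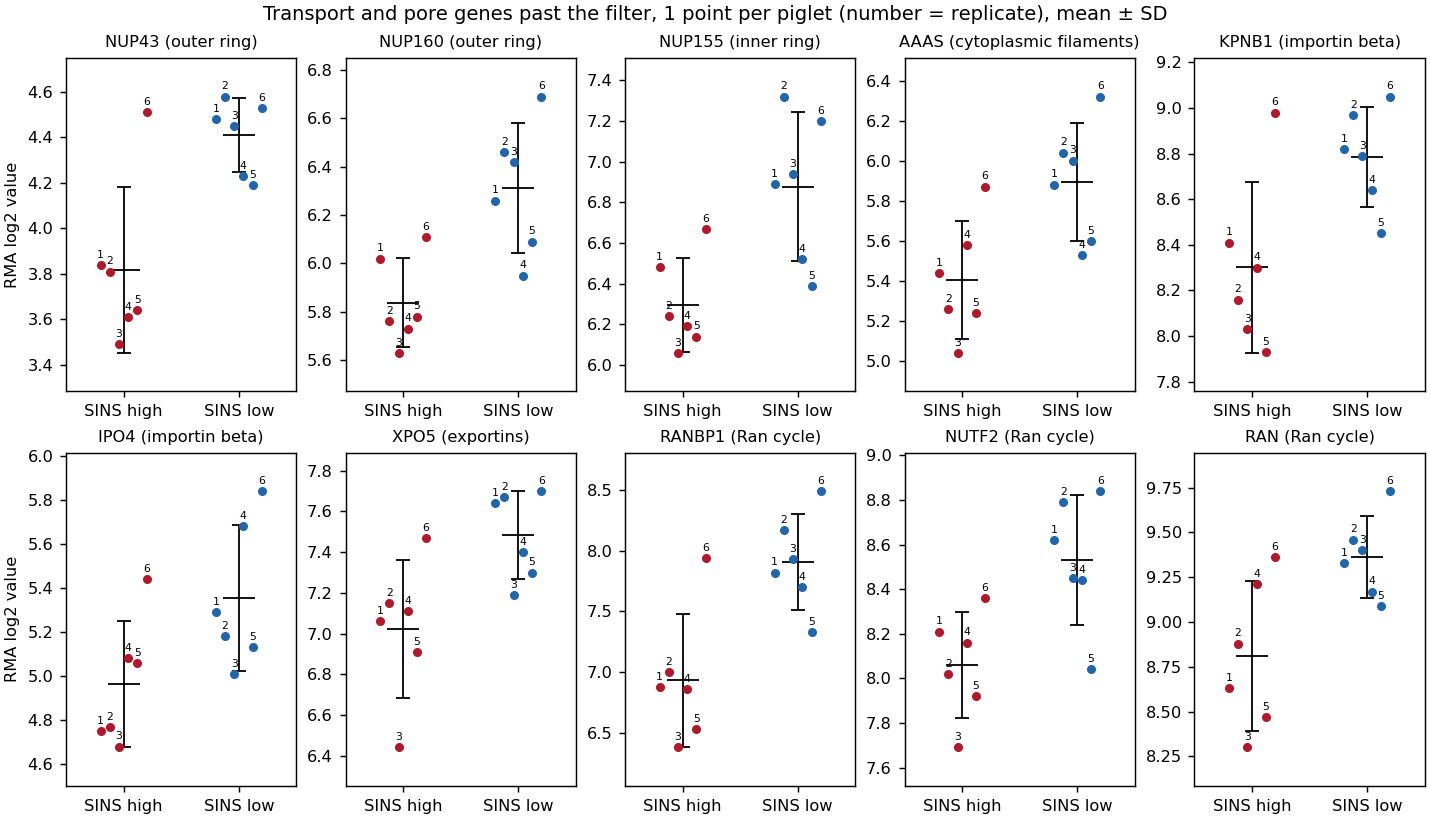
RMA log2 values of the 10 down-regulated genes, with 1 point per piglet numbered by replicate, the SINS high group in red and the SINS low group in blue, and the mean with SD (n = 6 each) in black. Each panel has its own scale, and the point of SINS high replicate 6 is the highest of its group in all 10 panels.

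Among the importins of the beta type, which bind both cargo and RAN, 2 of 7 genes were down-regulated and 0 were up-regulated, and 5 were not called. All 7 had a negative log2(FC), with a median of −0.21. KPNB1, importin beta 1, the carrier of the classical import route, lay at 7.93, 8.23 and 8.98 in the SINS high group, against 8.45, 8.81 and 9.05 in the SINS low group. In 5 SINS high piglets KPNB1 was below every SINS low piglet, and SINS high replicate 6 was above 5 of the 6 SINS low piglets. Expressed as log2(FC), KPNB1 differed by −0.49 (standard error 0.16, exact p = 0.0281), or 71.4% of the SINS low level, and −0.62 without SINS high replicate 6. IPO4, which imports histones in human cells, had 4.68, 4.92 and 5.44 in the SINS high group, against 5.01, 5.24 and 5.84 in the SINS low group. The groups overlapped in IPO4, with 3 SINS high piglets below every SINS low piglet and 2 SINS low piglets, replicates 4 and 6, above every SINS high piglet. Its log2(FC) was −0.39 (standard error 0.16, exact p = 0.0584), just past the fold change of the filter. The call of IPO4 was lost with the methods' t-test, with array quality weights and with another quantile normalization. It was also lost without SINS high replicate 1, 2 or 3 (−0.35, −0.35 and −0.34) and without SINS low replicate 4 or 6 (−0.33 and −0.29). IPO5, which imports ribosomal proteins and histones, was lower by less than the fold change of the filter, at 7.47, 7.67 and 7.87 in the SINS high group and 7.75, 7.88 and 8.12 in the SINS low group. The log2(FC) of IPO5 was −0.23 (standard error 0.10, exact p = 0.0325), and a second transcript of it had the same value of −0.23 (exact p = 0.0974). RANBP6, a relative of IPO5, had −0.21, TNPO2, which imports RNA-binding proteins, −0.17, TNPO3, the carrier of splicing factors, −0.13, and IPO8 −0.10, and their 95% intervals all reached above 0.

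Of the importins of the alpha type, the adaptors between a nuclear localization signal and KPNB1, 0 of 3 passed the filter and 1 had a p below 0.05. KPNA3 was the nearest to it, at 7.14, 7.68 and 8.03 in the SINS high group, against 7.66, 8.01 and 8.36 in the SINS low group. Its log2(FC) of −0.37 (standard error 0.15, exact p = 0.0476) fell just short of the fold change asked for, and its second transcript had −0.36. KPNA3 passed without SINS high replicate 4 (−0.39), 5 (−0.40) or 6 (−0.44), without SINS low replicate 4 (−0.40) or 5 (−0.44), and with median centring of the arrays (−0.38). KPNA5 ranged over 4.28 to 4.61 in the SINS high group, against 4.08 to 5.22 in the SINS low group, with a log2(FC) of −0.34 (95% interval −0.70 to 0.02). KPNA5 was above every SINS high piglet in 4 SINS low piglets, below all of them in SINS low replicate 4 and next to the lowest in SINS low replicate 5, and it passed the filter without either of these last piglets (−0.47 and −0.42). KPNA7, the form known from oocytes and early embryos, had −0.05 (95% interval −0.45 to 0.35).

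Among the exportins, 1 of 6 was down-regulated and 0 were up-regulated, 5 were not called, and the median log2(FC) was −0.18. XPO5, which exports the hairpin precursors of microRNAs, lay at 6.44, 7.09 and 7.47 in the SINS high group, against 7.19, 7.52 and 7.70 in the SINS low group. It was below every SINS low piglet in 5 SINS high piglets, and SINS high replicate 3 had the lowest value. The log2(FC) of XPO5 was −0.46 (standard error 0.15, exact p = 0.0173), or 72.7% of the SINS low level, and the call was lost through the fold change without SINS high replicate 3 (−0.34). A second, dimmer transcript of XPO5 was down-regulated as well, with −0.58 (standard error 0.17, exact p = 0.0108). XPO4, which exports the translation factor eIF5A, had 5.67, 5.87 and 6.26 in the SINS high group, against 5.90, 6.16 and 6.50 in the SINS low group, and its log2(FC) was −0.28 (standard error 0.12, exact p = 0.0455). XPOT, the exportin of transfer RNA, had −0.22 (95% interval −0.50 to 0.06), RANBP17 −0.14, the actin exportin XPO6 −0.10 and XPO7 0.06 (95% interval −0.17 to 0.28).

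In the scaffold of the pore, both rings held down-regulated genes. The outer ring is built from copies of a Y-shaped complex, and all 6 measured components had a negative log2(FC), of which 2 passed the filter. NUP43 lay at 3.49, 3.73 and 4.51 in the SINS high group, against 4.19, 4.47 and 4.58 in the SINS low group. The piglets of the SINS high group lay between 3.49 and 3.84 except replicate 6, which reached 4.51, and no SINS low piglet was below 4.19. The log2(FC) of NUP43 was −0.59 (standard error 0.15, exact p = 0.0108), or 66.3% of the SINS low level, and −0.73 without SINS high replicate 6. NUP43 was dim, at a rank of 45.3% of all transcripts by mean level, and detection above background was not tested. NUP160 had 5.63, 5.77 and 6.11 in the SINS high group, against 5.95, 6.34 and 6.69 in the SINS low group. Every SINS high piglet was below the median of the SINS low group, and SINS high replicates 1 and 6 overlapped with SINS low replicates 4 and 5. NUP160 had −0.47 as log2(FC) (standard error 0.13, exact p = 0.0108). The rest of these 6 were closer to 0, with −0.22 for NUP107, −0.20 for NUP85, −0.19 for NUP133 and −0.17 for NUP37. NUP85, with the lowest p of these, had 5.16, 5.39 and 5.55 in the SINS high group, against 5.34, 5.56 and 5.83 in the SINS low group (95% interval −0.42 to 0.02, exact p = 0.0519). The 95% intervals of these 6 genes overlapped, and their differences from each other were not tested.

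NUP155 of the inner ring was down-regulated, at 6.06, 6.22 and 6.67 in the SINS high group, against 6.39, 6.92 and 7.32 in the SINS low group. As in NUP160, 4 SINS low piglets lay above every SINS high piglet, and SINS low replicates 4 and 5 lay within the SINS high range. The log2(FC) of NUP155 was −0.58 (standard error 0.16, exact p = 0.013), or 66.9% of the SINS low level. NUP188, a scaffold protein of the same ring, did not reach the fold change, with 5.26, 5.58 and 5.81 in the SINS high group, against 5.71, 5.84 and 6.02 in the SINS low group. All 6 SINS high piglets were below the SINS low median of NUP188, and its log2(FC) was −0.30 (standard error 0.11, exact p = 0.0152). NUP43, NUP160 and NUP155 kept their calls in each of the 12 fits without 1 array, with NUP160 between −0.55 and −0.40 and NUP155 between −0.68 and −0.49. NUP210, a membrane protein that anchors the pore, had 6.41, 6.64 and 6.98 in the SINS high group, against 6.60, 7.07 and 7.28 in the SINS low group. Its log2(FC) was −0.32 (standard error 0.13, exact p = 0.0411) and that of its second transcript −0.30 (exact p = 0.0195), and NUP210 passed the filter without SINS high replicate 6 (−0.39) or SINS low replicate 5 (−0.40).

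The channel and the 2 faces of the pore differed less evenly. NUP62, the central repeat-bearing nucleoporin of the channel, had 3.47, 3.85 and 4.14 in the SINS high group, against 3.93, 4.12 and 4.32 in the SINS low group, and its log2(FC) was −0.30 (standard error 0.12, exact p = 0.0325). NUP62 was also dim, at a rank of 42.8% of all transcripts by mean level. Its partner NUP54 had −0.27, with an interval that reached from −0.74 to 0.21, and NUP98, which takes part in mRNA export, had 0.01 (95% interval −0.19 to 0.20). On the cytoplasmic side, AAAS was down-regulated and the other 2 measured genes were not. AAAS encodes ALADIN, which is mutated in the human triple A syndrome. It lay at 5.04, 5.35 and 5.87 in the SINS high group, against 5.53, 5.94 and 6.32 in the SINS low group. Each SINS high piglet was below the SINS low median of AAAS and 4 were below every SINS low piglet. The log2(FC) was −0.49 (standard error 0.16, exact p = 0.0173), or 71.2% of the SINS low level, and its call was kept in each of the 12 fits without 1 array (−0.58 to −0.41). NUP214, which forms filaments, had a log2(FC) of 0.00 (95% interval −0.26 to 0.27) and −0.07 in a dimmer transcript. RAE1, an mRNA export factor that binds NUP98, had 6.10, 6.37 and 7.68 in the SINS high group, against 6.18, 6.38 and 7.35 in the SINS low group. A single piglet in each group was far above the others, and the log2(FC) of 0.03 (95% interval −0.51 to 0.57, exact p = 0.868) changed to −0.20 without SINS high replicate 2. In the nuclear basket, NUP50, which helps to release importin alpha from its cargo, had 7.30, 7.49 and 7.95 in the SINS high group, against 7.81, 7.85 and 7.92 in the SINS low group. In NUP50, 5 SINS high piglets lay below every SINS low piglet and SINS high replicate 6 above all of them. Its log2(FC) was −0.32 (standard error 0.11, exact p = 0.0152), and it passed the filter with −0.41 without SINS high replicate 6.

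The genes of mRNA export had small differences of the same sign, and 0 of the 5 passed the filter while 2 had a p below 0.05. Their median log2(FC) was −0.28. THOC7, a subunit of the THO complex, was the only one of the 44 genes whose groups did not overlap. It had 6.38, 6.52 and 6.64 in the SINS high group, against 6.74, 6.79 and 6.97 in the SINS low group. Among all genes, 0.244% were lower and 0.219% were higher without overlap. The log2(FC) of THOC7 was −0.28 (standard error 0.08, exact p = 0.00216), or 82.4% of the SINS low level, and between −0.30 and −0.25 in the 12 fits without 1 array. It is thus a small difference by fold change beside a small spread, with an SD of 0.10 among SINS high and 0.08 among SINS low piglets (n = 6 each). NXT1, a partner of NXF1, had 4.11, 4.32 and 4.71 in the SINS high group, against 4.49, 4.59 and 4.97 in the SINS low group, and its log2(FC) was −0.29 (standard error 0.12, exact p = 0.0346). NXT2, another such partner, had −0.34 (95% interval −0.74 to 0.07), and it passed the filter without SINS high replicate 6 (−0.47), without SINS low replicate 4 (−0.45) and with array quality weights (−0.43). THOC3 had −0.25 and THOC2 −0.11, both with intervals that reached above 0. RANBP9 and RANBP10 carry the name of RAN-binding proteins but are known as scaffold proteins linked to a ubiquitin ligase, and neither differed by more than the spread between piglets. RANBP9 had 7.35, 7.49 and 7.86 in the SINS high group, against 7.32, 7.47 and 7.52 in the SINS low group (log2(FC) 0.07, 95% interval −0.14 to 0.27, exact p = 0.519), and RANBP10 had a log2(FC) of 0.03 (95% interval −0.17 to 0.23).

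The 10 down-regulated genes shared the piglets at the ends of their ranges. SINS high replicate 6 had the highest value of its group in all 10, and SINS high replicate 3 had the lowest value of all 12 piglets in 9, the exception being KPNB1, which was lowest in SINS high replicate 5. In the SINS low group, replicate 6 was the highest of all 12 piglets in 8 of the 10 genes and replicate 2 in the other 2, NUP43 and NUP155. SINS low replicate 5 was the lowest of its group in 6 of the 10. Measured as the median deviation of the 10 genes from their means over all piglets, SINS high replicates 1 to 5 lay between −0.61 and −0.19 and SINS high replicate 6 at 0.25, against −0.04 to 0.61 in the SINS low group. The 10 genes were chosen by the difference between the groups, so a contrast between the groups in this median follows from the choice. Over all 44 genes the same median was −0.29 to −0.09 in SINS high replicates 1 to 5 and 0.13 in replicate 6, against −0.05 to 0.35 in the SINS low group. SINS high replicate 6 was below the mean of a gene in 10 of the 44 genes, the other SINS high piglets in 31 to 40. Without this array, 14 of the 44 genes were down-regulated, the 10 above with KPNA3, NUP210, NUP50 and NXT2, while 6.20% of all genes were. In that fit NUP43, RANBP1 and KPNB1 had adjusted p-values of 0.0266, 0.0289 and 0.0429 in limma over all transcripts, and 171 of the 25388 transcripts had one below 0.05. The log2(FC) in the same fit was −0.67 for RAN, −0.65 for NUP155, −0.58 for AAAS and −0.55 for XPO5. It was −0.53 for NUP160, −0.53 for NUTF2 and −0.49 for IPO4. NUP62 had −0.36, NUP54 −0.40 and XPO6 −0.17, and the log2(FC) of NUP214 turned to −0.01. NUP133 and THOC3 reached unadjusted p-values of 0.0435 and 0.0244 in limma, below the fold change asked for. The fit leaves out the SINS high piglet nearest to the SINS low group in these genes, which widens the difference by itself. Its adjusted p-values therefore cannot serve as support for a difference. In every other fit without 1 array, the lowest adjusted p of the 44 genes in limma was 0.152 or above.

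**Figure D3:**
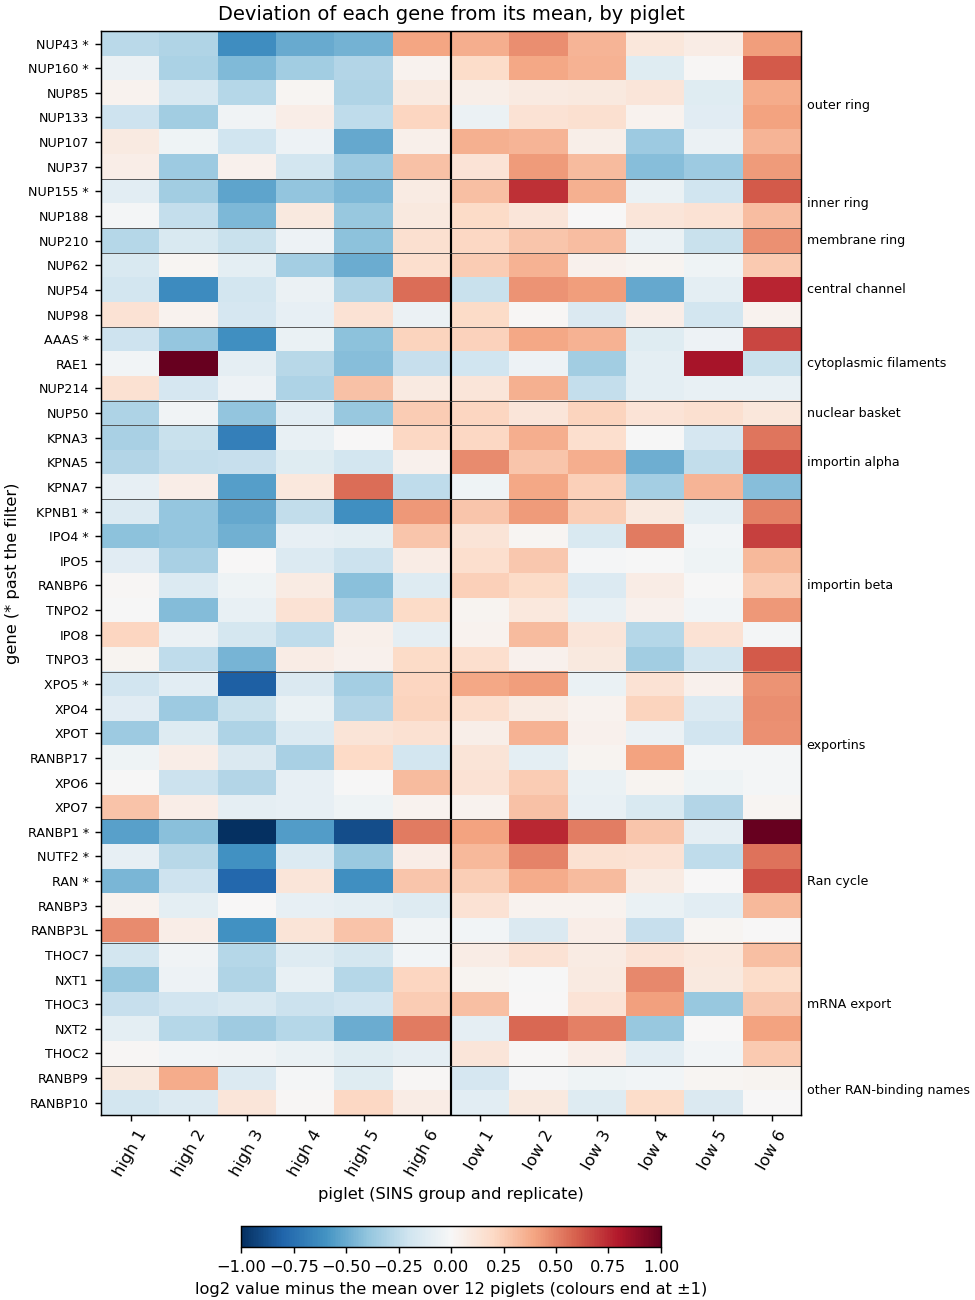
Deviation of each of the 44 genes from its mean over the 12 piglets, on a log2 scale with red above and blue below the mean, SINS high piglets left of the black line and SINS low piglets right of it. Rows are ordered by part and an asterisk marks the 10 down-regulated genes. SINS high replicates 1 to 5 are below the mean in 31 to 40 of the rows, and SINS high replicate 6 in 10.

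Markers of dividing cells were lower in some of the same piglets. Of the 6 measured, all had a negative log2(FC), with a median of −0.63, and 1 of them, the replication factor MCM2, was down-regulated (log2(FC) −0.76, standard error 0.23, exact p = 0.013). Their mean log2 level lay between 4.54 and 6.25 in the SINS high group, against 4.66 and 6.86 in the SINS low group. Per piglet, the mean deviation of these markers was −1.32 and −1.09 in SINS high replicates 3 and 5, and −1.20 in SINS low replicate 4. Over all 44 transport genes the median deviation was −0.26 and −0.29 in SINS high replicates 3 and 5, against 0.01 in SINS low replicate 4, where 22 of the 44 were below their mean. SINS high replicates 1 and 4 had −0.10 and −0.09 over the 44 genes, with the dividing-cell markers at 0.07 and 0.30. SINS high replicate 6 had 0.13 over the 44 genes and 0.38 for the markers, the highest of its group in both. SINS low replicates 2 and 6 had 0.27 and 0.35 over the 44 genes, with the markers at 1.00 and 0.87. The values were −0.18 and −0.16 in SINS high replicate 2 and 0.15 and 0.08 in SINS low replicate 1. They were 0.09 and 0.50 in SINS low replicate 3 and −0.05 and 0.58 in SINS low replicate 5. Of 6 markers of red blood cell precursors, 4 (HBB, ALAS2, EPB42 and SLC4A1) were up-regulated and 2 were not called, KLF1 with a log2(FC) of 0.18 and the transferrin receptor TFRC with −0.74 (exact p = 0.167). The list had a mean level of 4.92 to 5.72 in the SINS high group, against 4.20 to 5.26 in the SINS low group. Kupffer cell markers, of which 2 of 7 were up-regulated, had a mean level of 7.64 to 8.32 in the SINS high group, against 7.39 to 7.95 in the SINS low group. Of these 7, MARCO went the other way, with a log2(FC) of −0.23. Neutrophil markers, with 1 of 4 up-regulated, had 3.75 to 5.03 in the SINS high group, against 2.92 to 4.68 in the SINS low group. The hepatocyte markers were at 12.20 to 12.32 in the SINS high group and 12.25 to 12.32 in the SINS low group, with 0 of 5 past the filter. The dimmest markers, CD79A of lymphocytes, KLF1 and S100A9 of neutrophils, ranked at 25.6%, 26.5% and 26.5% of all transcripts by mean level, and detection above background was not tested. The part of cell composition and of cell division in the lower transport genes was not tested.

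**Figure D4:**
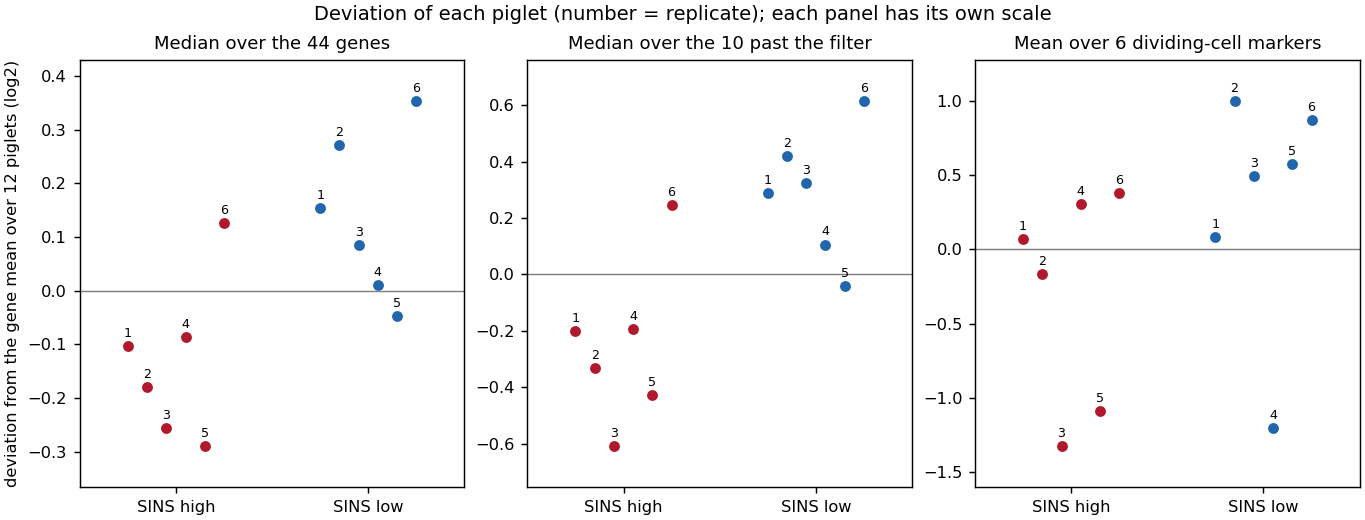
Deviation from the gene means over 12 piglets (log2), per piglet, as the median over the 44 genes (left), the median over the 10 down-regulated genes (centre) and the mean over the 6 dividing-cell markers (right), with each panel on its own scale and numbers giving the replicate. SINS high replicates 1 to 5 lie below 0 in the first 2 panels, where the 10 genes of the centre panel were chosen by the difference between the groups, and SINS low replicate 4 has −1.20 for the dividing-cell markers beside 0.01 for the 44 genes. SINS high replicate 6 and SINS low replicates 1, 2, 3 and 6 lie above 0 in every panel.

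Genes around this machinery that the symbols above do not include were described from a list of 41 genes of the pore, the lamina, the linkage to the cytoskeleton and RNA export, of which 25 were measured. Of these, 1 was down-regulated and 1 up-regulated, and 23 were not called. A single call in either direction is near the share over all genes (3.80% lower and 2.30% higher) and says nothing particular about the list. A negative log2(FC) was found for 20 of the 25 (80.0%, against 49.3% of all genes), with a median of −0.14. At a p of limma below 0.05 irrespective of the fold change, 3 were lower (12.0%, against 7.98% of all genes) and 1 was higher. SEC13, a part of the Y complex that also serves in the coat of transport vesicles, was down-regulated, at 6.14, 6.57 and 7.31 in the SINS high group, against 6.55, 7.08 and 7.41 in the SINS low group. Its groups overlapped widely, and its log2(FC) was −0.41 (standard error 0.18, exact p = 0.0801). SYNE1, which encodes nesprin 1 of the outer nuclear membrane, was up-regulated, at 3.49, 4.23 and 4.83 in the SINS high group, against 3.02, 3.92 and 3.98 in the SINS low group (log2(FC) 0.51, standard error 0.24, exact p = 0.104). SYNE1 was dim, at a rank of 43.1% of all transcripts by mean level, and detection above background was not tested. In both SEC13 and SYNE1 the exact p was above 0.05 while the p of limma was just below it. The mRNA export helicase DDX39B had −0.31 (exact p = 0.0108), a difference under the 1.3-fold limit, and the lamin gene LMNB1 had −0.44 with an interval from −1.02 to 0.14.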

How the data were processed

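Liver RNA of 12 piglets was hybridized to the Affymetrix Porcine Gene 1.0 Sense Target array, 1 array per piglet. The deposited log2 values, from RMA as the authors ran it in Expression Console (version not given in the sources used here), were used as they are. RMA fits all arrays together and compresses small differences of dim transcripts, and precision is limited by how many arrays there are. Of the 25388 transcripts, 13257 carry 1 gene symbol, 427 several and 11704 none. Groups were compared over all transcripts with limma (version 3.58.1, R version 4.3.3; functions lmFit and eBayes), with group as the only term, as 6 SINS high against 6 SINS low piglets, with Benjamini-Hochberg adjustment over all transcripts. To pass, a gene needed both an unadjusted p under 0.05 and a fold change over 1.3. Permutation tests enumerated all 924 assignments.

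Genes, lists and tests were chosen with earlier results of these data known. Values are given for each gene that passed and for the gene with the lowest p among the others of each part, and for some further genes chosen after their values were seen. The fits were tested on simulated data. Alternatives were the methods' t-test, a robust fit with an intensity trend, a fold change over 1.5, median centring, weights for array quality, a second quantile normalization, a fit without the dimmest 25% of transcripts, the label number as a block, every transcript of each gene, and leaving out each array. Figures were drawn with matplotlib 3.10.9. No sequences were used here.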

Additional observations from a re-analysis of the deposited data

Results flagged for a closer look

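In each group of 6 piglets, a value was picked out when its gap to the next value took up most of the range of the group (Dixon's test), in 46 such tests over 22 genes and 1 median. Chance picks out about 1 group in 20, and 5 values were found. NUP43 was 4.51 in SINS high replicate 6, while the other SINS high piglets lay between 3.49 and 3.84. RAE1 was 7.68 in SINS high replicate 2, while the others of that group lay between 6.10 and 6.50, and it was 7.35 in SINS low replicate 5, while the others of that group lay between 6.18 and 6.48. THOC7 was 6.97 in SINS low replicate 6, while the other SINS low piglets lay between 6.74 and 6.81. RANBP9 was 7.32 in SINS low replicate 1, while the other SINS low piglets lay between 7.45 and 7.52.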

How the results depend on the processing

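The number of down-regulated pore and transport genes stayed between 9 and 11 of 44 with the methods' t-test, the intensity trend and array quality weights. The same range held with the filter on dim transcripts, another quantile normalization and median centring. In these fits, 2.99% to 4.61% of all genes were down-regulated. With every transcript counted, the number was 10 of 44 genes, or 11 of 49 transcripts, and 0 were up-regulated under any alternative. The number was 8 to 14 when 1 array was left out, lowest without SINS high replicate 3 and highest without SINS high replicate 6. The median log2(FC) was −0.29 to −0.18 in these fits, and 2.72% to 6.20% of all genes were down-regulated. A fold change above 1.5 left 2 of the 44 genes, RANBP1 and NUP43, and 416 of the 1311 transcripts. The share of all genes that were lower at that fold change was not counted, so these 2 cannot be set against it. Leaving out 1 array gave 979 to 2147 transcripts, with 2147 without SINS high replicate 6. RAE1 turned to −0.20, −0.01, −0.04 and −0.01 without SINS high replicate 2 and SINS low replicates 1, 3 and 6, and RANBP9 to 0.00 (negative before rounding, −0.0007) without SINS high replicate 2; over all fits without 1 array their ranges were −0.20 to 0.199 and −0.0007 to 0.1013. The labels do not say whether their numbers pair piglets. Same-numbered arrays correlated between 0.00 and 0.34 in their deviations over all transcripts, and 2 of 6 matched best with their own number. These values do not settle whether the piglets are paired. With the replicate block, 10 of the 44 genes were down-regulated, against 4.13% of all genes, and 1478 transcripts were called. The median log2(FC) of the 44 genes was −0.24 in that fit. The lowest adjusted p of the 44 genes in limma was 0.0733 with the block and 0.28 without it. The block lowered the standard error of each down-regulated gene, for RANBP1 from 0.2402 to 0.1281. It raised that of some other genes, such as NUP50, from 0.1085 to 0.1147. With 6 piglets a group, differences as small as those of most of the other 34 genes have intervals that include 0.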
